A study of Mus musculus with 4 samples.

Results

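The genes described here are 10 regulators linked to leukaemia, namely the pseudokinase genes Trib1 and Trib2 and the genes of the nuclear regulators Myb, Myc, Mycn, Sox4, Mef2c, Bcl11a, Mn1 and Wt1. They were chosen by symbol, 10 of the 24016 symbols in the count tables, and each was represented by its RefSeq transcript with the highest total over the 4 libraries. RNA was sequenced from hematopoietic stem cells (HSCs) sorted from the bone marrow of C57BL/6 mice at 4 months of age as lineage-negative, Sca-1+, c-Kit+, CD150+, CD34- and Flt3- cells. There were 2 libraries of NHD13 cells (genotype NHD13+) and 2 of wild-type (WT) cells. The NHD13 transgene encodes a fusion of the nucleoporin NUP98 with the homeodomain protein HOXD13, a model of myelodysplastic syndrome that can progress to acute leukaemia. The line is generally described as using regulatory elements of the blood-cell gene Vav1, and the labels do not state a promoter. Whether the 2 libraries of a genotype are separate animals or pools is not stated either, so SDs and p-values here reflect library-to-library spread, which may be technical.

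Tribbles proteins are pseudokinases that act as scaffolds: they bring the ubiquitin ligase COP1 to the myeloid factor C/EBPα, which is then degraded, and forced Trib1 or Trib2 expression causes acute myeloid leukaemia in mice. Trib2 is also known to cooperate with Hoxa9 and to lie downstream of Meis1 in mouse models. MYB, MYC and MYCN keep progenitors dividing, and MYC and MYCN bind DNA together with MAX. SOX4, MEF2C, BCL11A, MN1 and WT1 act at other genes in early progenitors, and high activity of each is known from some human or mouse leukaemias.

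Trib2 was the regulator that rose, by about 3-fold, and it did so in both NHD13 libraries. Myb and Sox4 were higher in both NHD13 libraries by about 1.6-fold and Mn1 was lower in both, but these differences did not pass the adjusted threshold. Myc, Mycn and Trib1 were split within the NHD13 pair. Bcl11a was at similar levels in all 4 libraries, and Wt1 had at most 10 counts in a library. Values are CPM, the counts of a gene scaled to a common library total after correction by the trimmed mean of M values (TMM). A called gene is one whose p from edgeR's quasi-likelihood test, with Benjamini-Hochberg adjustment over all genes tested, was under 0.05. Of the 10 genes 9 passed the filter on low counts and 1 of these 9 was called, Trib2, against 4.28% of all 14853 genes tested in either direction, 2.07% called higher and 2.22% called lower. At an unadjusted p under 0.05 there were 4 of the 9 and 26.8% of all genes. The 9 genes had a median log2 fold change of 0.31, with 5 above 0 and 4 below, beside a median of 0.0013 over all genes tested and 50.1% of them above 0. The NHD13 and WT libraries did not overlap for 5 of the 9, 4 higher and 1 lower in NHD13, beside 60.4% of all genes tested (30.1% higher and 30.3% lower). DESeq2 called 4 of the 9 (Trib2, Myb, Sox4 and Mn1) and 17.5% of all genes, and limma-voom called 1 and 4.17%.

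**Figure D1:**
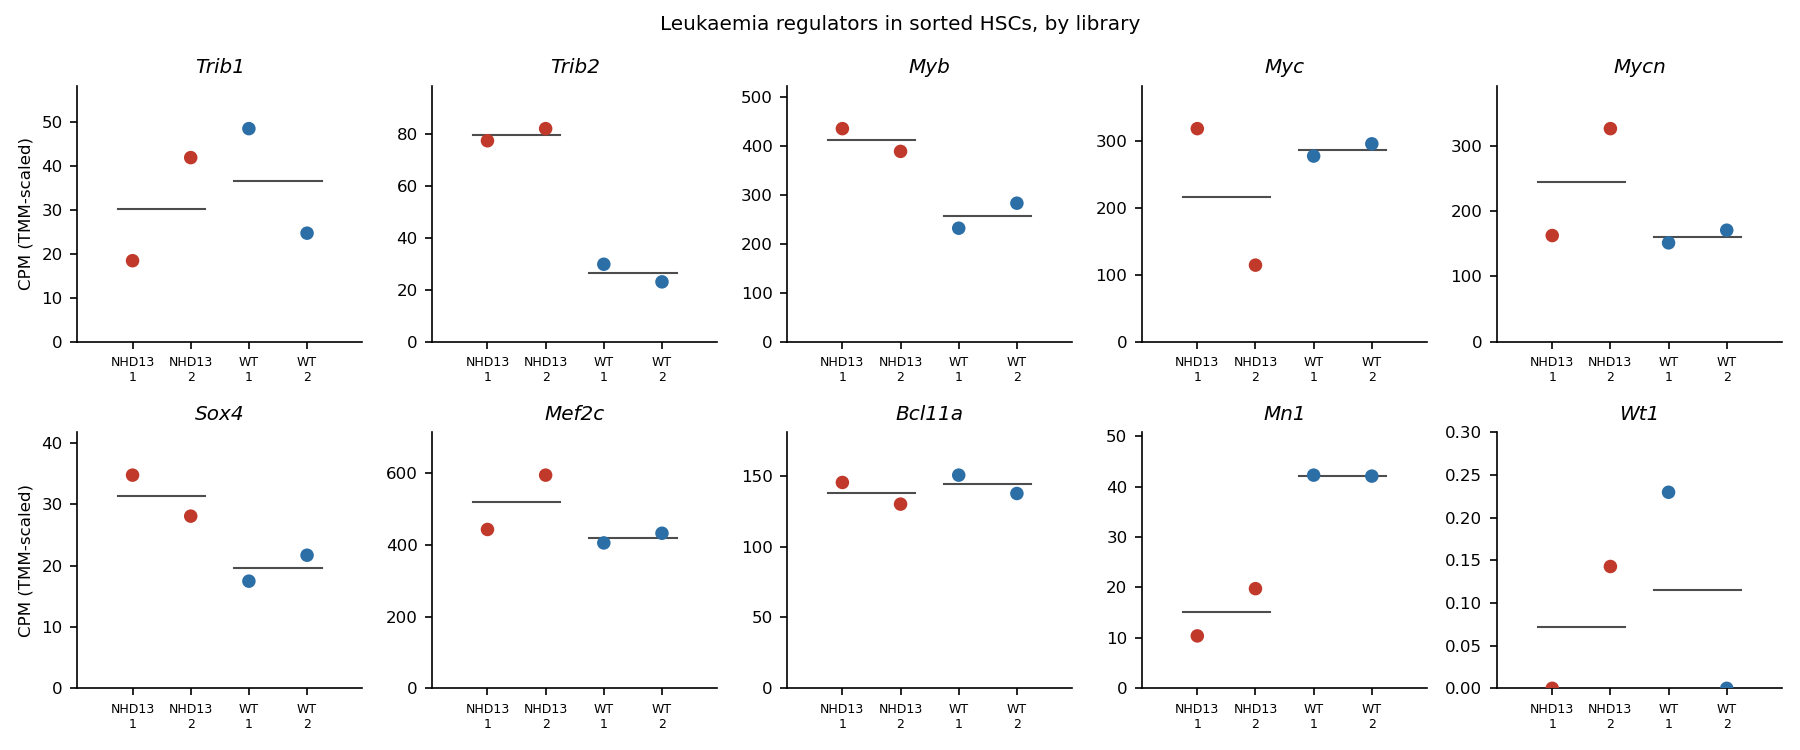
CPM of each regulator (vertical axes, linear from 0, 1 scale per gene) in the 2 NHD13 libraries (red) and the 2 WT libraries (blue); lines are the means of each pair. Trib2 stands at 77.5 and 82.1 CPM in NHD13 cells, against 29.9 and 23.1 in WT, while Myc and Mycn split in opposite directions within the NHD13 pair.

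The libraries held 35025974 and 48423689 counts in NHD13 and 42664018 and 37070939 in WT with 1 transcript per symbol. The fusion partner Nup98 had a log2 fold change of 0.02 ± 0.08 (SE, adjusted p 0.912), and mouse Hoxd13 was at 1.89 and 1.59 CPM in NHD13 cells, against 0.322 and 0.0821 in WT (adjusted p 0.0893). Among genes of the sort gate, Kit was at 991 and 1122 CPM in NHD13 and at 1130 and 1271 in WT, and Slamf1, which encodes CD150, was at 143 and 117 CPM in NHD13 and at 119 and 134 in WT. Ly6a, the gene of the Sca-1 antigen, had 131 and 77.7 CPM in NHD13 cells, against 273 and 200 in WT (edgeR adjusted p 0.0921). Cd34 had 51.6 and 21.4 CPM in NHD13 cells, against 120 and 138 in WT (edgeR adjusted p 0.0796). Summed over 8 stem cell markers, the level was 932 and 1401 CPM in NHD13 and 2282 and 2342 CPM in WT. Of these 8, 2 were called lower, beside 2.22% of all genes. Summed over 6 markers of multipotent and myeloid progenitors, the level was 1137 and 858 CPM in NHD13 and 188 and 203 CPM in WT. Of these 6, 3 were called higher (Mpo, Cd48 and Ctsg), beside 2.07% of all genes, and Fcgr3 was higher without a call. Mpo and Cd48 made up most of the NHD13 sums, at 709 and 587 CPM and at 267 and 223 CPM. Cd34, in the same list, was lower in NHD13. Flt3 was at 59.0 and 4.33 CPM in NHD13 and at 10.4 and 15.4 in WT. In RNA from many cells, fewer cells of a type and less RNA per cell cannot be told apart. The 2 NHD13 libraries also differed from each other. The 8 late granulocyte markers, none at 0, summed to 2752 CPM in the first NHD13 library and 361 CPM in the second, with 317 and 273 CPM in the WT libraries. The 8 T and NK cell markers did not move as one between the NHD13 libraries. Cd3g was at 1.02 and 30.8 CPM in NHD13 cells, against 0.552 and 0.602 in WT, and Cd3e and Gzmb were likewise high in NHD13 library 2 (36.3 and 30.3 CPM) and below 1 CPM in the others. Cd3d, Il2rb and Ncr1 were at no more than 1.24 CPM in any library, Klrb1c was at 29.4 and 48.8 CPM in NHD13 and 39.2 and 44.8 in WT, and Nkg7 was at 153 and 82.2 CPM in NHD13 and 18.9 and 18.0 in WT.

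The promoter windows of Trib2, Myb, Sox4 and Mycn are shown because Trib2 was the called gene, Myb and Sox4 were higher beside it in both NHD13 libraries, and Mycn was high in 1 NHD13 library. Each window is from RefSeq on GRCm38.p6, 250 bases before and 50 after the annotated start, 5′ to 3′ on the gene's strand, and 6 of the 10 genes had one in the table used (8 windows, 3 of them of Mef2c). The counts were made on the older build mm9, so these coordinates do not apply to them. The Trib2 window is chr12:15816736-15817035 on the minus strand, the Myb window chr10:21160935-21161234 on the minus strand, the Sox4 window chr13:28953650-28953949 on the minus strand and the Mycn window chr12:12941787-12942086 on the minus strand. Capitals mark a match to one of the searched motifs on either strand.
Trib2: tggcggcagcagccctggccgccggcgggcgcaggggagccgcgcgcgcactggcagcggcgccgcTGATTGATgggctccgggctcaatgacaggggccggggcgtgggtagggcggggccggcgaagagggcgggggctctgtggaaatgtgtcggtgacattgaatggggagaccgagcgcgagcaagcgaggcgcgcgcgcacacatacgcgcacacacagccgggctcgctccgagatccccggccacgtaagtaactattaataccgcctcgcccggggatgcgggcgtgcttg
Myb: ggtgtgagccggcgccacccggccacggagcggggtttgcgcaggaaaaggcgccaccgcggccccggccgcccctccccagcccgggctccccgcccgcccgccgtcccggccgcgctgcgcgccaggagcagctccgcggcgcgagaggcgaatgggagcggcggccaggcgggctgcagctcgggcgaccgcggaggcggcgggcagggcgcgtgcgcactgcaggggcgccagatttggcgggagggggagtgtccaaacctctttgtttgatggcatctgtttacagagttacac
Sox4: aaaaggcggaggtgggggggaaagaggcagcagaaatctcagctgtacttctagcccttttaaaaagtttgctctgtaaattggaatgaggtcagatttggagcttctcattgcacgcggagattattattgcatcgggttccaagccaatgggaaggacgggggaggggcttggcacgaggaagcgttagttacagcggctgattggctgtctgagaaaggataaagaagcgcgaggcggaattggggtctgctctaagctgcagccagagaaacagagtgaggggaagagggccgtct
Mycn: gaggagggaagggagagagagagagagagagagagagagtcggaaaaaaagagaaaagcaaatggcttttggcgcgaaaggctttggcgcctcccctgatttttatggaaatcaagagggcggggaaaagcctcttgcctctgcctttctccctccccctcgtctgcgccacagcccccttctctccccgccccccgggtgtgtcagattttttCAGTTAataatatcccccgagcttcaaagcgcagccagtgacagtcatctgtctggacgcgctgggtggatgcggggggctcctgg
The motifs were CACGTG (the E-box of MYC and MAX), TAACNG (a MYB site), CAATAAA (a HOXD13-type site), TGATTNAT (a site of HOX with PBX) and TTGCNNAA (a C/EBP-type site), searched on both strands. The Trib2 window held 1 match, to the HOX with PBX site, starting 184 bases before the annotated start, and 3.22% of all 32851 promoter windows held that motif. The Mycn window held 1 match, to the MYB site, starting 36 bases before the start, and 1 Mef2c window held another, while 23.3% of all windows held that motif. No match to any of these motifs was found in the Myb, Sox4 and Bcl11a windows or in the other Mef2c windows, and no matches overlapped. Over all windows CACGTG stood in 7.15%, CAATAAA in 4.6% and TTGCNNAA in 10.8%. A match to letters is a description of the window and not evidence of binding. The Trib2 and Myb windows were rich in G and C, at 71.0% and 75.0% with 40 CpG each, against a median of 52.7% and 7 CpG over all windows, and Sox4 (52.0%, 12 CpG) lay near the median.

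Of the 2 tribbles genes, Trib2 had 77.5 and 82.1 CPM in the NHD13 libraries and 29.9 and 23.1 CPM in the WT libraries. Both NHD13 values lay above both WT values, and the NHD13 pair lay closer together than the WT pair. The means were 79.8 ± 3.30 CPM in NHD13 and 26.5 ± 4.80 CPM in WT (SD, n = 2 libraries each). By edgeR's quasi-likelihood test the log2 fold change was 1.59 ± 0.16 (SE), with an adjusted p of 0.0193. DESeq2 gave an adjusted p of 9.64e-15 and limma-voom 0.0236. The call was lost without WT library 1 (adjusted p 0.117), WT library 2 (0.122) or NHD13 library 1 (0.0592), where the log2 fold change was 1.78, 1.42 and 1.64, and kept without NHD13 library 2 (0.0396). In a fit without 1 library the spread comes from the genotype that still has a pair, and the lone library is assumed to vary like it. Without either WT library edgeR called 0 genes of any kind at the adjusted threshold, with 2332 and 2605 at an unadjusted p under 0.05, so the loss of Trib2 there was shared with every other called gene.

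Trib1, the paralogue with the same action on C/EBPα, showed no such separation. It was at 18.5 and 41.9 CPM in NHD13 and at 48.5 and 24.7 CPM in WT. The groups overlapped, and the libraries of each pair lay further apart (log2 gaps of 1.18 in NHD13 and 0.97 in WT) than the groups did (log2 fold change -0.28 ± 0.49, SE, edgeR adjusted p 0.763). Its log2 fold change was above 0 without WT library 1 (0.28) or NHD13 library 1 (0.20). Trib2 exceeded Trib1 in CPM by 4.2 and 1.96 times in the NHD13 libraries and stood at 0.616 and 0.935 of it in the WT libraries; the transcripts are of near-equal length (4198 and 4330 bases), so length hardly affects these ratios. Trib3, the third paralogue and a gene of the stress response, ran the other way, at 6.78 and 15.0 CPM in NHD13 cells, against 53.2 and 51.3 in WT (log2 fold change -2.26 ± 0.39). Its edgeR adjusted p was 0.0509, just over the threshold, and it was called by DESeq2 (3.6e-08), by limma-voom (0.0400) and with DESeq2 size factors in edgeR (0.0492).

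None of the 11 genes of the tribbles pathway was called by edgeR, beside 4.28% of all genes. At an unadjusted p under 0.05 there were 4, beside 26.8% of all genes. The count was 4 by DESeq2 and 1 by limma-voom, beside 17.5% and 4.17% of all genes. The median log2 fold change of the 11 was -0.03, with 5 above 0 and 6 below. The following were picked for their role, after their values were seen. Cebpa, which encodes C/EBPα, was very low in all libraries, at 0.553 and 0.347 CPM in NHD13 and 0.069 and 0.274 CPM in WT. These were 19 and 17 counts in NHD13 and 3 and 10 in WT. The groups did not overlap, as for 60.4% of all genes tested (log2 fold change 1.39 ± 0.88, edgeR adjusted p 0.369). Rfwd2, which encodes COP1, was at 14.1 and 11.8 CPM in NHD13 and at 8.16 and 9.99 CPM in WT (log2 fold change 0.51 ± 0.21, edgeR adjusted p 0.211). Map2k1, which encodes the kinase MEK1 that tribbles proteins bind, was at 48.6 and 51.7 CPM in NHD13 and 72.5 and 72.2 in WT (log2 fold change -0.53 ± 0.10, edgeR adjusted p 0.0555).

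Among 11394 other genes with a name and an average log2 CPM of at least 1, the 2 whose log2 CPM, centred over the 4 libraries, lay nearest to that of Trib2 were Cd79a, a chain of the B cell receptor (Euclidean distance 0.163), and Itgb7, an integrin subunit (0.168). Cd79a was at 11.3 and 14.1 CPM in NHD13 and 4.60 and 3.50 CPM in WT. Itgb7 was at 39.1 and 37.3 CPM in NHD13 and 13.7 and 11.9 CPM in WT. With 4 libraries many genes share such a profile. Of the 8 B cell markers 7 were tested, and 1 (Cd79a) was called higher (edgeR adjusted p 0.0454), beside 2.07% of all genes. That call was lost with library totals only (0.0553), with summed transcripts (0.0583) and without any 1 of the 4 libraries (log2 fold change 1.47 to 1.85). The 8 B cell markers summed to 91.0 and 98.0 CPM in NHD13 and 74.9 and 82.5 in WT. Igll1 was at 0 in WT library 2 and Pax5 in both WT libraries, and the part of such cells in the Trib2 result was not tested. The summed T and NK cell markers were at 186 and 230 CPM in NHD13 and 62.0 and 65.0 in WT, with none at 0. Of the 7 tested, 1 was called higher (Nkg7, edgeR adjusted p 0.0293), beside 2.07% of all genes. Without WT library 1 or 2 Nkg7 was not called, at a log2 fold change of 2.70 and 2.64. The part of T and NK cells in the Trib2 result was likewise not tested. Summed markers of multipotent and myeloid progenitors were at 1137 and 858 CPM in NHD13 and 188 and 203 in WT, although Cd34 was lower. Monocyte and macrophage markers summed to 318 and 138 CPM in NHD13 and 43.0 and 26.2 in WT. The part of such cells in the Trib2, Myb and Sox4 results was not tested.

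Myb, which encodes a factor that progenitors need to divide, had 435 and 389 CPM in NHD13 and 232 and 283 CPM in WT. Both NHD13 values lay above both WT values. The means were 412 ± 32.9 CPM in NHD13 and 257 ± 36.1 CPM in WT (SD, n = 2), a log2 fold change of 0.68 ± 0.13 (SE). The edgeR adjusted p of 0.0625 missed the threshold; Myb was called by DESeq2 (0.000165), by edgeR without a filter on low counts (0.0273) and by edgeR with a stricter filter (1 CPM in each library of either genotype, 0.0431), and not by limma-voom (0.0607). Its log2 fold change ranged from 0.54 to 0.83 when 1 library was left out. The 2 Myb transcripts in the tables had nearly the same counts, with the shorter one at 99.0% and 99.0% of the longer one in NHD13 and 98.9% and 99.1% in WT.

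Of 16 relatives, cofactors and targets of MYB, edgeR called none, beside 4.28% of all genes. At an unadjusted p under 0.05 there were 8, beside 26.8% of all genes. The count was 6 by DESeq2 and 0 by limma-voom, beside 17.5% and 4.17% of all genes. The median log2 fold change was 0.12, with 9 above 0 and 7 below, and the range was -3.10 to 0.84. Ep300, which encodes the coactivator p300 that binds MYB, had the smallest p, with 28.9 and 24.3 CPM in NHD13 cells, against 14.4 and 15.9 in WT (log2 fold change 0.81 ± 0.16, edgeR adjusted p 0.0630). Of the 8 genes with an unadjusted p under 0.05, 5 were higher in NHD13 (Ep300 and the targets Cdca7, Pim1, Ets1 and Ccnb1) and 3 lower (the targets Lmo2, Bcl2 and Gata3). Cdca7, a gene of dividing cells, was at 413 and 339 CPM in NHD13 cells, against 212 and 265 in WT (edgeR adjusted p 0.0866). Ccnb1, a mitotic cyclin, was at 116 and 118 CPM in NHD13 cells, against 90.0 and 49.5 in WT (edgeR adjusted p 0.184). Bcl2, a survival gene, was at 33.1 and 56.6 CPM in NHD13 cells, against 95.8 and 95.0 in WT (edgeR adjusted p 0.0853). Gata3, a gene of lymphoid cells and stem cells, was at 2.50 and 14.9 CPM in NHD13 cells, against 72.3 and 78.5 in WT (edgeR adjusted p 0.103). The MYB relative Mybl2 was at 17.2 and 11.8 CPM in NHD13 and at 14.3 and 4.90 in WT, so that its groups overlapped.

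Myc and Mycn, whose proteins can replace each other in much of stem cell function, were split within the NHD13 pair and in opposite directions. Myc was at 319 and 115 CPM in the NHD13 libraries and at 278 and 296 CPM in the WT libraries. NHD13 library 1 thus lay above both WT libraries and NHD13 library 2 below both. Mycn was at 163 and 326 CPM in the NHD13 libraries and at 151 and 171 CPM in the WT libraries, with NHD13 library 1 between the WT libraries and NHD13 library 2 above both. The ratio of Myc to Mycn in CPM was 1.96 and 0.351 in the NHD13 libraries, against 1.83 and 1.73 in WT. Their sum varied less, at 481 and 441 CPM in NHD13 and 429 and 467 CPM in WT; their transcripts of 2338 and 2674 bases differ little in length.

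Over both NHD13 libraries neither gene was called. The log2 fold change was -0.41 ± 0.47 for Myc (edgeR adjusted p 0.631) and 0.60 ± 0.33 for Mycn (edgeR adjusted p 0.314). NHD13 library 2 decided the direction of Myc: without it the log2 fold change was 0.16 (edgeR adjusted p 0.402), and without NHD13 library 1 it was -1.31, with a call (edgeR adjusted p 0.0366), in a fit that called 1.69% of all genes and took its spread from the WT pair alone, which lay 0.09 apart on the log2 scale for Myc. Mycn had 0.02 without NHD13 library 2 and 1.03 without NHD13 library 1 (edgeR adjusted p 0.938 and 0.0603). Late granulocyte markers were high in NHD13 library 1, as was Flt3 (59.0 CPM, with 4.33 CPM in the other NHD13 library, and 10.4 and 15.4 CPM in WT), and Cd3g, Cd3e and Gzmb, 3 of the 8 T and NK cell markers, were high in NHD13 library 2; the part of such cells in the split of Myc and Mycn was not tested.

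**Figure D2:**
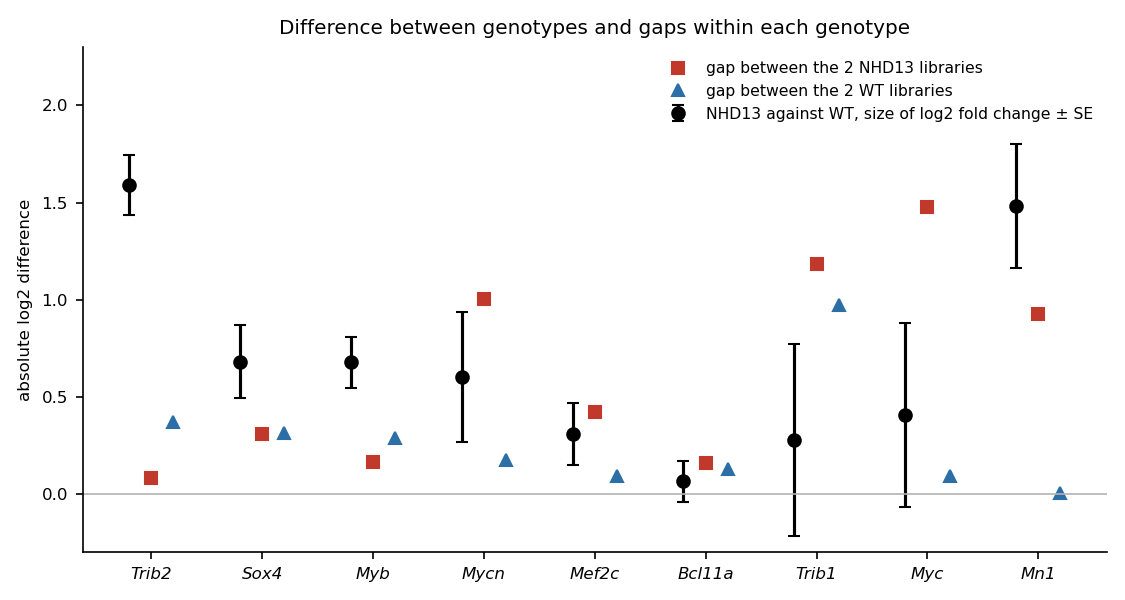
Size of the log2 fold change of NHD13 against WT with its SE (black), and the absolute log2 gap between the 2 NHD13 libraries (red squares) and between the 2 WT libraries (blue triangles), for the 9 tested regulators. The genotype difference exceeds both gaps for Trib2, Sox4, Myb and Mn1, while the NHD13 gap exceeds it for Mycn, Mef2c, Bcl11a, Trib1 and Myc.

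The gap within the NHD13 pair exceeded the size of the log2 fold change for 5 of the 9 tested regulators, and the gap within the WT pair exceeded it for 2. The NHD13 pair lay further apart than the WT pair for 6 of the 9, beside 55.5% of the 14508 tested genes with counts in all 4 libraries. Trib1 lies on the same chromosome as Myc (15) with 3 annotated protein-coding genes between them, and Trib2 on the same chromosome as Mycn (12), also with 3 between them, by the order of RefSeq genes on GRCm38.p6. The neighbours did not move alike across libraries: within the NHD13 pair Trib1 was lower and Myc higher in library 1, and Mycn was higher in library 2 while Trib2 was nearly level.

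The partners and targets of MYC showed small differences. Of 18 tested genes of the MYC network none was called by edgeR, beside 4.28% of all genes. At an unadjusted p under 0.05 there were 4, beside 26.8% of all genes. The count was 2 by DESeq2 and 0 by limma-voom, beside 17.5% and 4.17% of all genes. In this list 16 were above 0, beside 50.1% of all genes, and the median log2 fold change was 0.20. Skp2, a ubiquitin ligase subunit that acts on MYC, had the smallest p, at 29.4 and 30.1 CPM in NHD13 cells, against 21.0 and 19.2 in WT (log2 fold change 0.56 ± 0.13, edgeR adjusted p 0.0807). Max was at 50.5 and 41.0 CPM in NHD13 and at 51.3 and 33.4 CPM in WT. Of 26 MYC targets of ribosome synthesis, metabolism and growth none was called by edgeR. The count was 3 at an unadjusted p under 0.05, 2 by DESeq2 and 0 by limma-voom, beside the same shares of all genes. Of the 26, 22 were above 0, and the log2 fold changes ran from -0.22 to 0.45 with a median of 0.14. Cad, an enzyme of pyrimidine synthesis, had the smallest p, at 93.2 and 88.9 CPM in NHD13 cells, against 69.8 and 63.1 in WT (log2 fold change 0.45 ± 0.10, edgeR adjusted p 0.0759). Relative to the mean of the 4 libraries, the median MYC target stood at 0.153 on the log2 scale in NHD13 library 1 and at -0.0166 in NHD13 library 2, against -0.0519 and -0.0884 in WT.

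Sox4, a factor of early lymphoid and myeloid progenitors, had 34.7 and 28.0 CPM in NHD13 and 17.5 and 21.7 CPM in WT. Both NHD13 values lay above both WT values. The means were 31.4 ± 4.72 CPM in NHD13 and 19.6 ± 2.99 CPM in WT (SD, n = 2), and the log2 fold change was 0.68 ± 0.19 (SE), nearly that of Myb, with an edgeR adjusted p of 0.106. DESeq2 called it (0.0283). Among 6 tested genes of the SOX family listed beside it edgeR called none, against 4.28% of all genes. At an unadjusted p under 0.05 there were 5 (3 higher and 2 lower in NHD13), against 26.8% of all genes. The count was 1 by DESeq2 and 0 by limma-voom, against 17.5% and 4.17% of all genes. Sox18, of the endothelial lineage, was at 0.960 and 2.98 CPM in NHD13 cells, against 8.32 and 9.77 in WT (log2 fold change -2.19 ± 0.58, edgeR adjusted p 0.100). Sox12, of the same subgroup as Sox4, was at 4.13 and 2.59 CPM in NHD13 and at 3.84 and 2.60 in WT, and its groups overlapped.

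Mef2c, which acts in lymphoid and megakaryocytic differentiation and in leukaemias with MLL fusions, had 444 and 595 CPM in NHD13 and 406 and 433 CPM in WT. NHD13 library 1 lay just above the higher WT library and NHD13 library 2 well above it. The log2 fold change was 0.31 ± 0.16 (SE, edgeR adjusted p 0.285), 0.09 without NHD13 library 2 and 0.51 without NHD13 library 1. Its 2 transcripts had counts within 1% of each other, 99.4% and 99.4% in NHD13 and 99.3% and 99.5% in WT. Of 12 genes of the MEF2 family, class IIa histone deacetylases that repress through it, and its targets, 1 was called, lower. All genes called lower made up 2.22%. In this list 4 genes had an unadjusted p under 0.05 (2 higher and 2 lower in NHD13), beside 26.8% of all genes. DESeq2 called 3 and limma-voom 1, beside 17.5% and 4.17% of all genes. Nr4a1, the called gene of this list and an immediate early nuclear receptor gene, was at 482 and 468 CPM in NHD13 cells, against 1477 and 1071 in WT (log2 fold change -1.42 ± 0.17, edgeR adjusted p 0.0291). It was not called without any 1 of the 4 libraries (adjusted p 0.0615 to 0.132). The paralogues Mef2a (46.4 and 46.2 CPM in NHD13, 50.6 and 53.1 in WT) and Mef2d (17.1 and 20.3 in NHD13, 16.8 and 15.0 in WT) were not called, with edgeR adjusted p of 0.354 and 0.433.

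Bcl11a, the repressor of fetal globin genes that B cell development also needs, had 145 and 130 CPM in NHD13 and 150 and 138 CPM in WT. The groups overlapped and the log2 fold change was -0.07 ± 0.11 (SE, edgeR adjusted p 0.740). The tables held 4 Bcl11a transcripts that share exons. Relative to the longest of 5989 bases, the transcript of 3061 bases had 55.6% and 59.5% of its counts in NHD13 and 62.7% and 55.7% in WT, that of 2329 bases 39.0% and 43.5% in NHD13 and 45.8% and 41.2% in WT, and the shortest of 1505 bases 35.4% and 39.4% in NHD13 and 41.3% and 37.7% in WT. The groups overlapped for each of these shares, which count shared reads and are no measure of isoform use. Of 14 tested partners and targets of BCL11A all had a log2 fold change above 0, beside 50.1% of all genes, with a median of 0.27. None was called by edgeR, beside 4.28% of all genes, and 3 had an unadjusted p under 0.05, beside 26.8%. DESeq2 called 2 and limma-voom 0, beside 17.5% and 4.17% of all genes. Il7r (0.815 and 14.4 CPM in NHD13, 0.621 and 0.109 in WT) and Flt3 (59.0 and 4.33 in NHD13, 10.4 and 15.4 in WT) were high in 1 NHD13 library only. Klf1, an erythroid factor that activates Bcl11a, had the smallest p, at 13.8 and 11.1 CPM in NHD13 cells, against 6.28 and 7.03 in WT (log2 fold change 0.91 ± 0.22, edgeR adjusted p 0.0862). The embryonic globin gene Hbb-y had 0 and 5.0 CPM in NHD13 cells and 0.414 and 0 CPM in WT cells.

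Mn1, a coregulator whose forced expression causes acute myeloid leukaemia in mice, had 10.4 and 19.8 CPM in NHD13 and 42.3 and 42.1 CPM in WT. Both NHD13 values lay below both WT values, and the WT pair was almost identical while the NHD13 pair differed by 0.93 on the log2 scale. The means were 15.1 ± 6.62 CPM in NHD13 and 42.2 ± 0.136 CPM in WT (SD, n = 2), a log2 fold change of -1.48 ± 0.32 (SE). The edgeR adjusted p of 0.0716 missed the threshold. DESeq2 called Mn1 (0.000123). Without NHD13 library 2 the log2 fold change was -2.01 (edgeR adjusted p 0.0204), in a fit that called 6.35% of all genes and took its spread from the near-identical WT pair alone, so that call says nothing of the spread in NHD13 cells. Without NHD13 library 1 the log2 fold change was -1.08 (0.0653). The stem cell marker sum, at 932 and 1401 CPM in NHD13, was likewise lower in library 1, and its part in the Mn1 result was not tested. None of the 8 stem cell markers was at 0 in any library.

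Wt1 was near the limit of detection, with 0 and 7 counts in NHD13 and 10 and 0 in WT, and did not pass the filter. At these depths a count of 0 allows a level of up to 0.0873 CPM in NHD13 library 1 and 0.0821 CPM in WT library 2 (3 counts, covering counting error only), so no difference was detectable. Of 13 tested partners and targets of MN1 and WT1, 1 was called by edgeR, beside 4.28% of all genes. An unadjusted p under 0.05 was found for 4 (2 higher and 2 lower in NHD13), beside 26.8% of all genes. DESeq2 called 2 and limma-voom 1, beside 17.5% and 4.17% of all genes. Hoxa9, the called gene and a homeobox gene of stem cells and leukaemia, rose, with 252 and 254 CPM in NHD13 cells, against 94.4 and 114 in WT (log2 fold change 1.28 ± 0.12, edgeR adjusted p 0.0192). It was not called without WT library 1 (adjusted p 0.155), WT library 2 (0.119) or NHD13 library 1 (0.0603). The median of the list was -0.0024, with 6 above 0 and 7 below. Meis1, the cofactor of HOXA9, was at 634 and 586 CPM in NHD13 cells, against 861 and 975 in WT (log2 fold change -0.59 ± 0.10, edgeR adjusted p 0.0511), opposite in direction to Hoxa9 and Trib2.

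**Figure D3:**
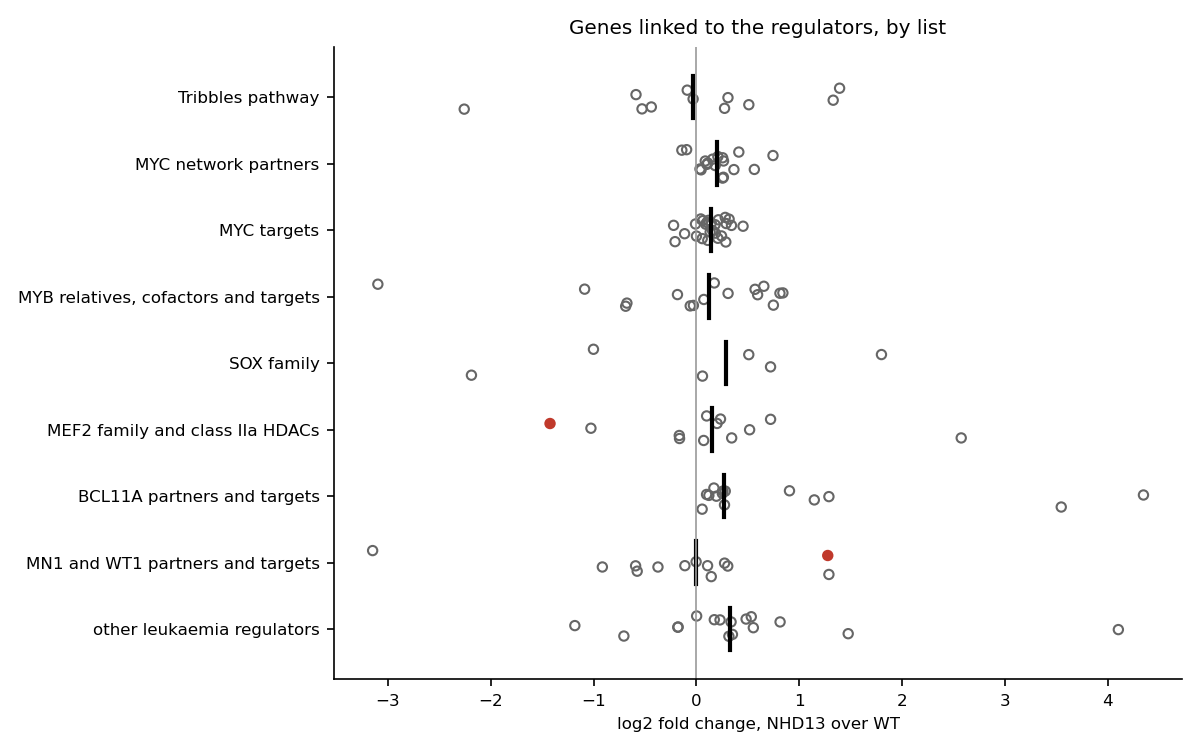
Log2 fold changes of NHD13 over WT for the tested genes of each list linked to the regulators; filled red points were called at an adjusted p under 0.05, open points were not, and black bars are list medians. Nr4a1 (-1.42) and Hoxa9 (1.28) are the 2 called genes, and the list medians lie between -0.03 and 0.33.

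Of 16 further leukaemia regulators edgeR called none, beside 4.28% of all genes. At an unadjusted p under 0.05 there were 4, beside 26.8% of all genes. The count was 2 by DESeq2 and 0 by limma-voom, beside 17.5% and 4.17% of all genes. The median log2 fold change of the 16 was 0.33, with 12 above 0 and 4 below. Over all genes tested the median was 0.0013, with 50.1% above 0. Zfp521, a zinc finger gene of stem cells, had the smallest p, at 30.4 and 35.1 CPM in NHD13 cells, against 51.0 and 55.8 in WT (log2 fold change -0.70 ± 0.13, edgeR adjusted p 0.0569). The T cell factor gene Tcf7, named after its values were seen, was at 1.22 and 30.1 CPM in NHD13 cells, against 0.759 and 1.07 in WT, high in the same library as Cd3g.

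Compared per kilobase of transcript, with lengths of GENCODE M21 transcripts matched by RefSeq accession, Mef2c had the highest mean in both genotypes, and Trib1, Sox4 and Mn1 were among the low ones in both. In NHD13 the means were 182 ± 37.5 CPM per kb for Mef2c, 112 ± 8.91 for Myb, 92.7 ± 61.7 for Myc, 91.4 ± 43.3 for Mycn, 23.0 ± 1.80 for Bcl11a, 19.0 ± 0.792 for Trib2, 6.97 ± 3.83 for Trib1, 6.54 ± 0.985 for Sox4 and 2.20 ± 0.965 for Mn1 (SD, n = 2). In WT they were 147 ± 6.65 CPM per kb for Mef2c, 123 ± 5.52 for Myc, 69.7 ± 9.79 for Myb, 60.3 ± 5.12 for Mycn, 24.0 ± 1.53 for Bcl11a, 8.45 ± 3.88 for Trib1, 6.31 ± 1.14 for Trib2, 6.15 ± 0.0198 for Mn1 and 4.08 ± 0.624 for Sox4. In NHD13 the values of Myb, Myc and Mycn overlapped each other, as did those of Trib1 and Sox4, and in WT those of Myb and Mycn overlapped, as did those of Trib1, Trib2 and Mn1. Trib2 in NHD13 stood just below Bcl11a with no overlap, at 18.5 and 19.6 against 24.3 and 21.7 CPM per kb. Bcl11a was taken here at its longest transcript, of 5989 bases, and its level per kb depends on the transcript taken. In WT, by the same measure, Trib2 lay among the lowest, at 7.12 and 5.50, with Bcl11a at 25.1 and 23.0.

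**Figure D4:**
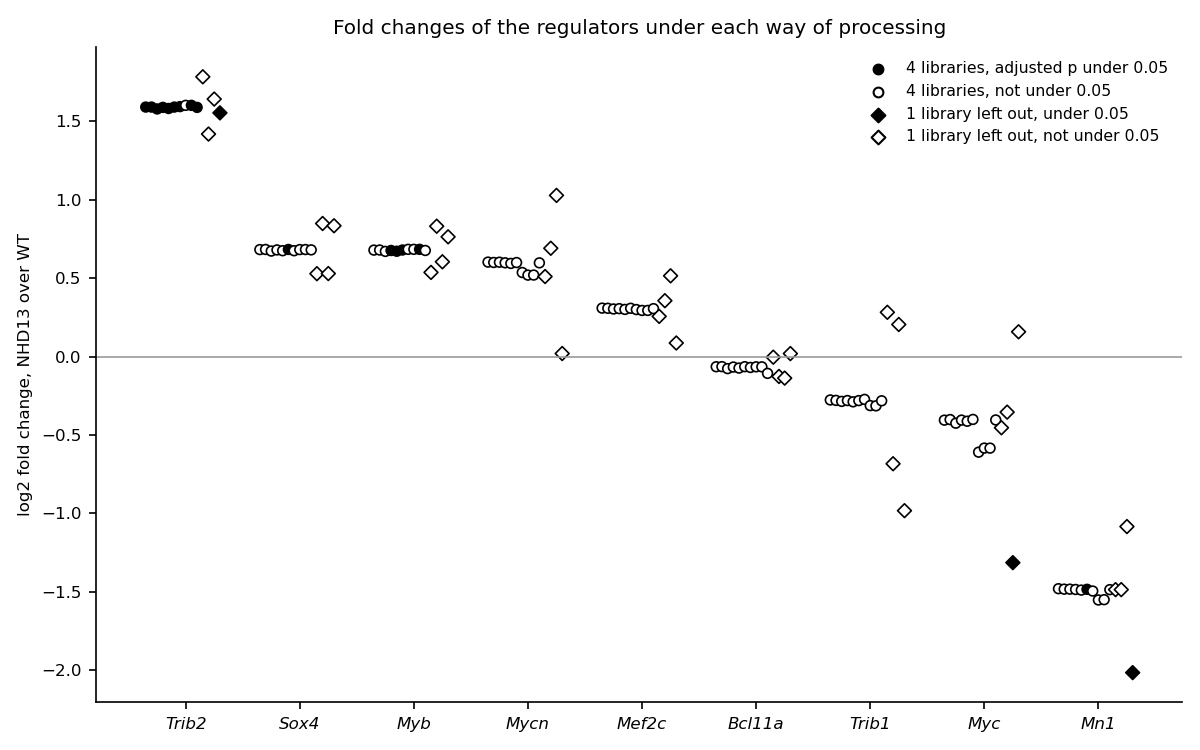
Log2 fold changes of NHD13 over WT of the 9 tested regulators under each way of processing; circles use all 4 libraries, diamonds leave 1 out, and filled symbols have an adjusted p under 0.05. Trib2 stays between 1.42 and 1.78, and Myc, Trib1 and Bcl11a lie on both sides of 0 when a library is left out.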

How the data were processed

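Trizol RNA of sorted cells was amplified with SMARTer Ultra Low reagents and read in pairs on a HiSeq, per the labels' protocols. Alignment used Bowtie 0.12.2 and mm9, per the submitters' processing notes. How reads were counted, and how strand and multiple alignments were treated, is not given in the sources used here. A gene and any antisense or overlapping gene thus cannot be told apart. The deposited values are raw counts per RefSeq transcript, 33018 rows in 1 table per library. One transcript per symbol was tested with edgeR 4.0.16 (R 4.3.3; default filter, TMM, robust quasi-likelihood test), with DESeq2 1.42.0, limma-voom (limma 3.58.1), other scalings and filters, summed transcripts, replicate blocks and leaving out each library as alternatives. SE is the size of the log2 fold change over the square root of F. Centred log2 values used a pseudocount of 0.5 CPM. The regulators and lists were chosen with earlier results of these data known. Genes named from a list were its called members, up to 4, or the 1 with the smallest adjusted p. Every other gene named from a list, such as Mybl2, Max, Sox12, Mef2a, Mef2d, Hbb-y, Meis1, Cdca7, Ccnb1, Bcl2 and Gata3, was picked after its values were seen.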

Additional observations from a re-analysis of the deposited data

How the results depend on the processing

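The number of genes called was 636 (307 higher and 329 lower in NHD13). It was 1138 without a filter, 1066 under a filter of 1 CPM in each library of either genotype, 2604 by DESeq2, 402 with summed transcripts and 107 with the replicate number as a block. Of the 9 tested regulators 1 was called; 2 were called without a filter, 2 with the stricter filter, 4 by DESeq2, 0 under the replicate block (where the adjusted p was 0.0560 for Trib2, 0.0539 for Hoxa9, 0.0572 for Nr4a1, 0.109 for Cd79a and 0.0519 for Nkg7) and 2 under a crossed block. Leaving out 1 library gave 0 to 990 genes and 0 to 2 regulators (edgeR; 2332 and 2605 genes had an unadjusted p under 0.05 where it called 0). Of 117 values of the regulators under alternatives, 101 kept their direction and side of the threshold, 8 crossed to a call, 4 lost it and 4 changed sign. The sign changes came from leaving out a library, with log2 fold changes from -0.98 to 0.28 for Trib1 (above 0 without WT library 1, at 0.28, or NHD13 library 1, at 0.20), -1.31 to 0.16 for Myc and -0.14 to 0.019 for Bcl11a (both above 0 without NHD13 library 2). Among other named genes Slamf1 ranged from -0.10 to 0.18 (-0.05 without WT library 1, -0.10 without NHD13 library 1) and Flt3 from -1.57 (without NHD13 library 1) to 2.20. The causes were not tested. With 4 libraries the log2 fold changes ranged from 1.58 to 1.60 for Trib2 and from -0.61 to -0.40 for Myc. The labels do not state whether replicate numbers pair the samples. Deviations of same-numbered libraries had a correlation of -0.125 across 14853 genes, which cannot settle pairing, as each genotype gives only 1 difference. The crossed pairing, added after seeing the data, gave 647 calls. With 2 libraries per group, the spread of each gene is poorly known.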
